A study of Mus musculus with 8 samples.

Results

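Transcripts of 9 voltage-gated potassium channel subunits that serve cardiac repolarization were measured in the left ventricles of 8 mice. The genes are Kcnd2, Kcnd3, Kcnip2, Kcna5, Kcnv2, Kcnh2, Kcnq1, Kcne1 and Dpp6, taken by symbol from 55487 Ensembl identifiers, and 8 of the 9 passed the filter on low counts that left 14695 genes. All animals were C57BL/6 mice at 12 weeks of age. The 4 animals titled CM-ADGRF5-KO have the genotype label GPR116-/- (myocyte-specific) and are called KO here, and the 4 animals titled NLC have the genotype label wild-type. Each group held 2 males (replicates 1 and 2) and 2 females (replicates 3 and 4). ADGRF5, also called GPR116, is an adhesion G protein-coupled receptor. No source used here names the promoter that drives the myocyte-specific deletion, the exons it removes, what NLC stands for or whether NLC animals carry a transgene. The 9 genes were selected on their biology and on the KO against NLC values of these same libraries, so their values in that contrast are given as a description and carry no test.

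Cardiac repolarization is the return of the membrane potential to rest after each beat, and it is carried by potassium leaving the myocyte through channels that open on depolarization. Kcnd2 and Kcnd3 encode the pore-forming subunits of the fast transient outward current, the main early repolarizing current of the adult mouse ventricle. Kcnip2 encodes KChIP2, the calcium-binding partner that brings these subunits to the membrane, and Dpp6 encodes a dipeptidyl peptidase-like partner that speeds their gating in neurons. Kcna5 encodes the subunit of an ultrarapid delayed rectifier, and Kcnv2 encodes a silent subunit that forms no channel alone and modifies other channel subunits. Kcnh2 encodes the pore of the rapid delayed rectifier, known as hERG in humans, while Kcnq1 and Kcne1 encode the pore and the regulatory subunit of the slow delayed rectifier. Both of these late currents are prominent in large mammals and small in the adult mouse ventricle.

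Promoters of the 3 main genes of the transient outward current are shown because their products form a single channel complex. Each window runs from 250 bases before to 50 bases after the RefSeq gene start, and the sequences are RefSeq's on GRCm38.p6, 5′ to 3′ on the gene's strand. The capitals mark the GC box GGGCGG, read on either strand. The windows lie at chr6:21215096-21215395 (plus strand), chr3:105451640-105451939 (plus strand) and chr19:45816014-45816313 (minus strand). The gene spans given further on come from GENCODE, whose starts for Kcnd2 and Kcnd3 lie downstream of these RefSeq windows.
Kcnd2: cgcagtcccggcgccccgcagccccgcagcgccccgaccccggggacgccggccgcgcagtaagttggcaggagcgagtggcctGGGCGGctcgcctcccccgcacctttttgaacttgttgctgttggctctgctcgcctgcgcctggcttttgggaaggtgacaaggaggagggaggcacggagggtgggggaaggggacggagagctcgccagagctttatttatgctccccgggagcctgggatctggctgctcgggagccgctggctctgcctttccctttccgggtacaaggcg
Kcnd3: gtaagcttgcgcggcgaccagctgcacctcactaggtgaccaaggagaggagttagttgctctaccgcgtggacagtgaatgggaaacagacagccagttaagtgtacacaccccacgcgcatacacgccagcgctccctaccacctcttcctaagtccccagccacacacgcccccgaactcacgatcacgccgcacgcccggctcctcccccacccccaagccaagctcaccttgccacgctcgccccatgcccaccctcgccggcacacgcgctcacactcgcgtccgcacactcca
Kcnip2: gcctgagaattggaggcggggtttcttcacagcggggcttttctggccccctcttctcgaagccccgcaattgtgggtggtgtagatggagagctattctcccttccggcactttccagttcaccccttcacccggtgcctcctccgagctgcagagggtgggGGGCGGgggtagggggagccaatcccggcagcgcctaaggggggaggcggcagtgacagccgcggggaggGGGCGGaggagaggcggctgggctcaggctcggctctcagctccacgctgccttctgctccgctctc

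The Kcnd2 window held 1 GC box and the Kcnip2 window 2, whereas the Kcnd3 window held 0, and 35.7% of all 32851 promoter windows hold at least 1. The GC content was 68.7% for Kcnd2, 64% for Kcnd3 and 67% for Kcnip2. The E-box CACGTG, the Iroquois-type motif ACANNTGT and the TATA box TATAAA, each searched on both strands, were in none of these 3 windows. They occur in 7.15%, 7.38% and 13.6% of all windows. The motifs do not overlap each other in these windows, and a match or its absence describes the letters alone. Of the 9 genes, 6 matched the promoter table.

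The libraries held 26.6 to 39.6 M gene reads in KO and 25.3 to 28.3 M in NLC. Adgrf5 was read at 223, 231, 203 and 239.8 CPM (read counts scaled to library size) in KO replicates 1 to 4 and at 233, 257, 222 and 218 CPM in NLC replicates 1 to 4. These values overlap (log2 fold change -0.05, edgeR adjusted p = 0.782). Endothelial cells also transcribe Adgrf5, and reads are counted over the entire gene, so this value does not check the genotype labels. All 8 markers of the cardiomyocyte list were present, with a summed level of 71364 to 84780 CPM in KO and 68038 to 79916 CPM in NLC. NLC replicate 4 stood apart in atrial markers, whose sum over 8 genes was 451 to 1591 CPM in KO and 451 to 966 CPM in NLC replicates 1 to 3, against 6416 CPM in NLC replicate 4. No marker of any list passed for KO against NLC. At an unadjusted p under 0.05, 3 of 7 atrial, 3 of 7 endothelial and 1 of 7 conduction system markers were lower in KO, where the share of all genes was 6.18%. At that threshold 3 of 5 fast skeletal muscle markers and 1 of 8 markers of the cardiomyocyte list were higher in KO, where the share of all genes was 5.77%. The summed level of the fast skeletal muscle markers was 2493 to 3559 CPM in KO and 2235 to 2830 CPM in NLC. The 8 genes of this sum include Ckm, the muscle creatine kinase gene, and Myh4 had 0 reads. As the share of each gene is not reported here, the sum is no measure of skeletal muscle tissue. The part of these markers in the channel values was not tested.

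Per length, Kcnip2 was the most abundant of the 9 transcripts and Dpp6 was at the limit of detection. To compare genes, CPM was divided by the length of the union of a gene's annotated exons. Over the 8 libraries Kcnip2 stood at 65.6 ± 10.99 CPM per kb (SD, n = 8), followed by Kcnh2 at 30.8 ± 4.79 CPM per kb and Kcnq1 at 16.8 ± 2.85 CPM per kb. The ranges of Kcnip2, Kcnh2 and Kcnq1 did not overlap from one gene to the next in this order. Kcna5 followed at 10.8 ± 1.88 CPM per kb, and its range overlapped that of Kcnq1, although Kcnq1 was the higher gene in 8 of 8 libraries. The next level was shared by 4 genes whose ranges overlapped, namely Kcne1 at 2.58 ± 0.820, Kcnd2 at 2.51 ± 0.768, Kcnd3 at 1.80 ± 0.163 and Kcnv2 at 1.57 ± 0.632 CPM per kb. Among these 4 the order changed between libraries, with Kcne1 above Kcnd2 in 5 of 8 and Kcnd3 above Kcnv2 in 5 of 8. Exon unions count every annotated isoform, so a gene with long untranslated exons that the heart does not use has its level per kb understated.

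**Figure D1:**
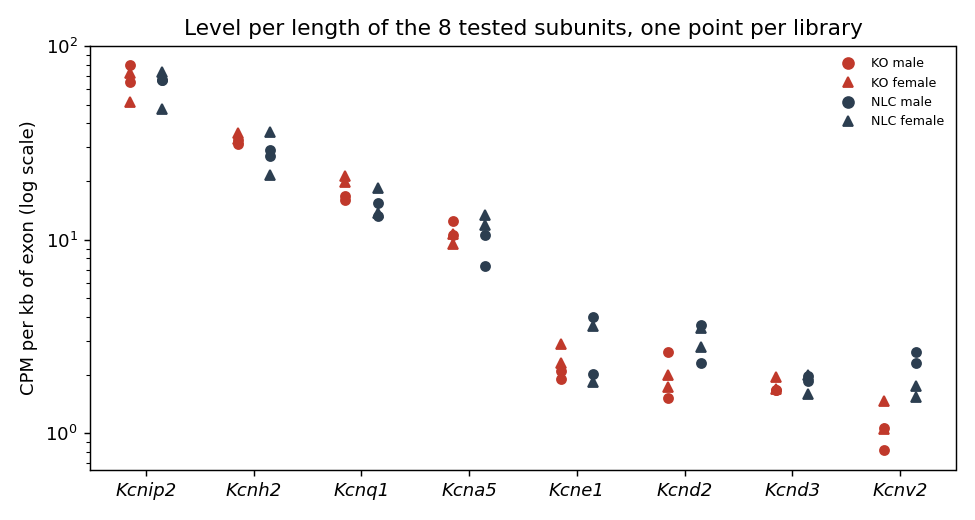
Levels of the 8 tested subunits in CPM per kb of exon on a log axis, with 1 point per library, KO points left of NLC points and circles for males and triangles for females. Kcnip2 is the highest at 65.6 CPM per kb on average, and Kcne1, Kcnd2, Kcnd3 and Kcnv2 share the lowest band.

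Of the transient outward genes, Kcnd2 had a lower mean in KO than in NLC, and for Kcnd3 and for Kcnip2 the KO and NLC means differed by less than the SD of either group. Whether these genes differ from each other in their genotype values was not tested. Kcnd2 (ENSMUSG00000060882, 21215503 to 21729805 on chromosome 6 of GRCm38) was read at 7.85, 13.5, 8.88 and 10.3 CPM in KO replicates 1 to 4 and at 11.9, 18.6, 17.9 and 14.4 CPM in NLC replicates 1 to 4. The groups overlapped through KO replicate 2, which lay above NLC replicate 1. The group means were 10.1 ± 2.47 CPM in KO and 15.7 ± 3.13 CPM in NLC (SD, n = 4 each), a log2 fold change of KO over NLC of -0.64 (SE 0.188). In whole tissue, fewer cells that express a gene and less RNA per cell cannot be told apart. The log2 fold change of Kcnd2 stayed between -0.84 and -0.51 when each library was left out in turn, with the weakest value without KO replicate 1, the deepest library. The summed level of 7 endothelial markers was 1132 to 1323 CPM in KO and 1204 to 1501 CPM in NLC, and its part in the Kcnd2 value was not tested.

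Kcnd3 varied least of the 8 tested genes. It was read at 15.9, 16.01, 16.3 and 18.7 CPM in KO and at 17.8, 18.8, 15.2 and 19.2 CPM in NLC, with overlapping groups and a log2 fold change of -0.08 (SE 0.0973). That value was -0.17 without NLC replicate 3, -0.15 without KO replicate 4, -0.05 without NLC replicate 2 and -0.04 without NLC replicate 4. Its gene (ENSMUSG00000040896, 105452330 to 105674002 on chromosome 3) shares exon bases with the opposite-strand gene Kcnd3os, which was read at 0.772 to 1.56 CPM in KO and 0.571 to 1.35 CPM in NLC. As no source used here names the strand setting of the counting, reads in the shared bases may not be separated. Kcnd2 made up 47.8%, 61.1%, 50.4% and 50.6% of the summed per-kb level of the pair in KO and 55.4%, 64.7%, 68.7% and 58.3% in NLC. The means of this share were 52.5 ± 5.89% in KO and 61.8 ± 6.05% in NLC (SD, n = 4 each), and the groups overlapped.

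Kcnip2 (ENSMUSG00000025221, 45791839 to 45816061 on chromosome 19) was read at 278, 227, 179 and 254 CPM in KO and at 231.6, 232.0, 256 and 166 CPM in NLC. Its log2 fold change was 0.08 (SE 0.146), and with single libraries left out it ran from -0.03 (without NLC replicate 4) to 0.23 (without NLC replicate 3). It was -0.02 without KO replicate 4, 0.01 without KO replicate 1, 0.12 without KO replicate 2 and 0.18 without KO replicate 3. The 2 lowest Kcnip2 libraries, NLC replicate 4 and KO replicate 3, were also the 2 with the highest atrial marker sums, 6416 and 1591 CPM. At the other end the order was not kept. KO replicate 1, the highest in Kcnip2, had an atrial sum of 944 CPM, and the next 2, NLC replicate 3 and KO replicate 4, had 451 CPM each. The part of atrial tissue in these Kcnip2 values was not tested. Relative to its channel partners, Kcnip2 outnumbered the summed per-kb level of Kcnd2 and Kcnd3 by 15.1 to 25.1 times in KO and by 9.93 to 16.004 times in NLC. These ranges overlapped, with means of 18.5 ± 4.67 in KO and 13.1 ± 2.70 in NLC (SD, n = 4 each).

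Dpp6 gave almost no reads. In KO replicates 1 to 4 it had 2, 5, 2 and 1 reads, and in NLC replicates 1 to 4 it had 0, 1, 2 and 1 reads. A count of 0 allows up to 3 reads, or 0.112 CPM in NLC replicate 1, a limit that covers counting error only. Of the 8 libraries, only KO replicate 2 exceeded 3 reads, so no fold is given and Dpp6 is not among the genes tested. Its gene (ENSMUSG00000061576) is the longest of the 9, spanning 910 kb at 26817203 to 27727505 on chromosome 5.

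**Figure D2:**
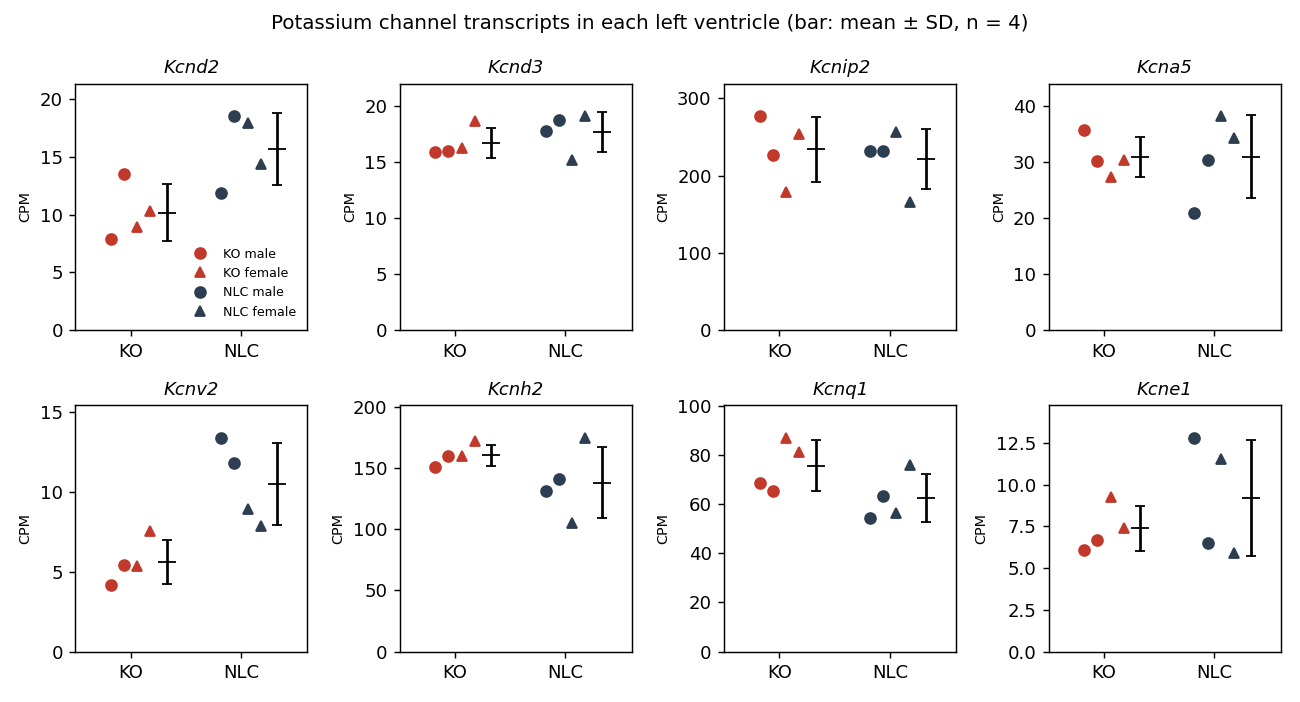
CPM of the 8 tested subunits in each library, KO left of NLC, with circles for males, triangles for females and a black bar at the mean with its SD (n = 4). Every KO point of Kcnv2 lies below every NLC point, while all other genes overlap between groups.

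Of the delayed rectifier genes, Kcnv2 had a lower mean in KO and Kcna5 nearly equal means. The log2 fold change of Kcnv2 was farthest from 0 among the 8 tested genes over all libraries, but not without NLC replicate 1, where Kcnv2 gave -0.77 and Kcnd2 -0.78. Kcnv2 (ENSMUSG00000047298, 27322588 to 27337179 on chromosome 19) was read at 4.15, 5.43, 5.34 and 7.52 CPM in KO and at 13.4, 11.8, 8.91 and 7.85 CPM in NLC. All 4 KO libraries lay below all 4 NLC libraries, with KO replicate 4 at 7.52 and NLC replicate 4 at 7.85 CPM close to each other. The means were 5.61 ± 1.40 CPM in KO and 10.5 ± 2.55 CPM in NLC (SD, n = 4 each), and the log2 fold change was -0.89 (SE 0.211). Such a separation was seen in 6.25% of all tested genes in either direction and in 3.03% with KO lower, and nothing is read from it here because this contrast was known when the genes were proposed. Leaving out each library in turn gave -1.10 (without KO replicate 4) to -0.71 (without KO replicate 1) for Kcnv2, and leaving out both female NLC libraries gave -1.40. That last value compares KO males with NLC males only.

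Kcna5 (ENSMUSG00000045534, 126532551 to 126535412 on chromosome 6) had the same mean in both groups. It was read at 35.7, 30.2, 27.3 and 30.4 CPM in KO and at 20.8, 30.4, 38.3 and 34.2 CPM in NLC. The NLC libraries spread widely and enclosed all 4 KO libraries. The log2 fold change was 0.02 (SE 0.160), and its sign turned without NLC replicate 1 (-0.16), without KO replicate 1 (-0.10) and without the sex term. It reached 0.12 without KO replicate 3 and 0.11 without NLC replicate 3.

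Among the late rectifier genes the 2 pore genes had higher means in KO and the regulatory subunit a lower one, and all 3 overlapped between groups. Kcnq1 (ENSMUSG00000009545, 143106362 to 143427042 on chromosome 7) was read at 68.6, 65.3, 87.0 and 81.2 CPM in KO and at 54.2, 63.3, 56.2 and 75.7 CPM in NLC. The groups overlapped only through NLC replicate 4, which exceeded KO replicates 1 and 2. The means were 75.5 ± 10.3 CPM in KO and 62.3 ± 9.72 CPM in NLC (SD, n = 4 each), a log2 fold change of 0.27 (SE 0.0976), which was 0.17 without NLC replicate 3. Kcnq1 shares exon bases with the opposite-strand RNA Kcnq1ot1, which was read at 1.14 to 1.62 CPM in KO and 0.775 to 1.46 CPM in NLC.

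Kcnh2 (ENSMUSG00000038319, 24319589 to 24351604 on chromosome 5) was read at 151, 159.7, 160.1 and 172 CPM in KO and at 131, 141, 105 and 175 CPM in NLC. The KO libraries lay close together inside the wider NLC range, whose lowest value was NLC replicate 3 and whose highest was NLC replicate 4. The log2 fold change of Kcnh2 was 0.22 (SE 0.131), and it was 0.08 without NLC replicate 3 and 0.37 without NLC replicate 4. The atrial marker sums of these 2 NLC libraries were 451 and 6416 CPM, and the part of atrial tissue in Kcnh2 was not tested.

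Kcne1 (ENSMUSG00000039639, 92345982 to 92359468 on chromosome 16) was read at 6.11, 6.71, 9.27 and 7.40 CPM in KO and at 12.8, 6.53, 11.5 and 5.91 CPM in NLC. The NLC libraries held 2 high and 2 low values, with 1 male and 1 female library in each, and all 4 KO libraries lay below the 2 high ones and inside the NLC range. The log2 fold change of -0.33 (SE 0.250) rested on the high NLC libraries and was -0.05 without NLC replicate 1, -0.18 without NLC replicate 3 and -0.54 without NLC replicate 4. The ratio of Kcnq1 to Kcne1 per kb was 8.81, 7.65, 7.37 and 8.62 in KO and 3.32, 7.61, 3.83 and 10.1 in NLC. The KO ratios were therefore tight at 8.11 ± 0.710 inside a wide NLC range of 6.20 ± 3.20 (SD, n = 4 each).

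Kcnh2 and Kcnq1 made up most of the summed per-kb level of the 6 alpha subunit genes in every library. Kcnh2 held 49.3 ± 1.20% in KO and 46.1 ± 5.06% in NLC, and Kcnq1 held 27.4 ± 2.81% in KO and 24.7 ± 0.454% in NLC (SD, n = 4 each). Kcnd2 held 2.37% to 4.05% in KO and 3.84% to 6.27% in NLC, which overlapped. Kcnv2 held 1.26% to 2.06% in KO and 2.11% to 4.81% in NLC, which did not. KO replicate 4 at 2.06% and NLC replicate 4 at 2.11% were close to each other. This Kcnv2 share is built from the Kcnv2 levels given above, so nothing is read from its separation either. The sum itself was 67.2 ± 3.30 CPM per kb in KO and 61.5 ± 8.54 CPM per kb in NLC, a difference smaller than the SD of the NLC libraries.

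**Figure D3:**
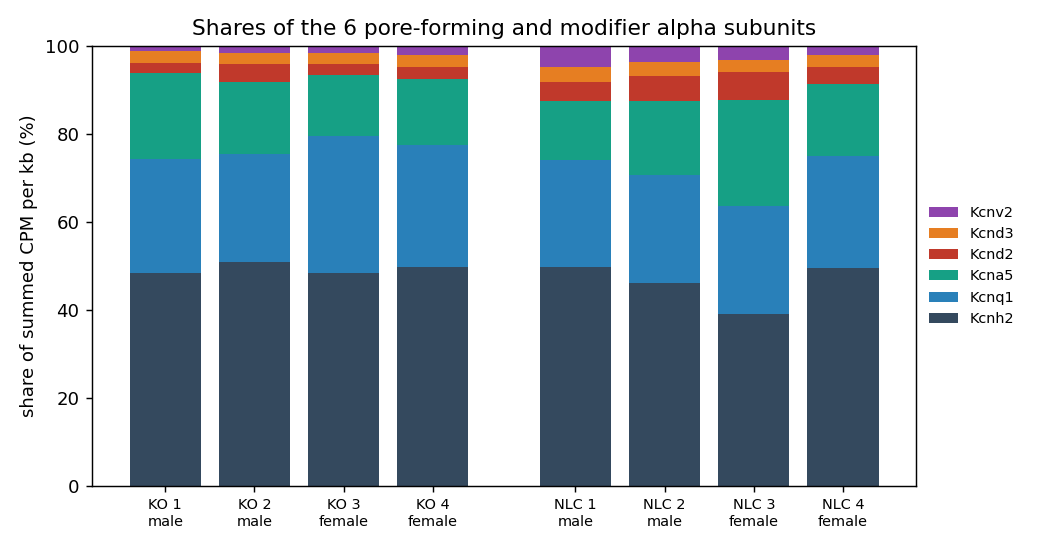
Share of each of 6 alpha subunit genes in their summed CPM per kb, in percent, with 1 bar per library and the KO libraries left of the NLC libraries. Kcnh2 and Kcnq1 fill most of each bar, and the thin Kcnd2 and Kcnv2 bands are wider in the NLC bars on average.

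None of the 8 tested members passed the table-wide comparison of KO with NLC. In that fit, edgeR's quasi-likelihood test with sex as a term called 15 of 14695 genes (0.102%) at an adjusted p under 0.05 and 0 of the 8. At an unadjusted p under 0.05 it gave 3 of the 8 (Kcnd2 and Kcnv2 lower, Kcnq1 higher), where the share of all genes was 11.9% (5.77% higher and 6.18% lower). DESeq2 called 1 of the 8, Kcnv2, with a background of 1.02%, and limma voom called 0 with a background of 0.0885%. The median log2 fold change of the 8 was -0.03, with 4 positive and 4 negative values, and that of all tested genes was -0.01. These counts come from the contrast that was known when the genes were proposed, and nothing is read from them.

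Male and female libraries were compared next, a contrast the choice of genes did not use. None of the 8 members passed for sex. By edgeR, 0 of the 8 passed, against 0.299% of all genes, and DESeq2 and limma voom also called 0, with backgrounds of 1.47% and 0.272%. Log2 differences of males over females ran from -0.25 to 0.18. Kcnq1 had the smallest p, with 62.8 ± 6.16 CPM in males and 75.0 ± 13.4 CPM in females (SD, n = 4 each), a log2 difference of -0.25 (SE 0.0976, edgeR adjusted p = 0.334). It was the 1 member at an unadjusted p under 0.05, where the share of all genes was 12.8%. Kcnip2 averaged 242 ± 23.8 CPM in males and 214 ± 48.0 CPM in females, a log2 difference of 0.18 (SE 0.146, edgeR adjusted p = 0.641).

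The genotype difference was then compared between the sexes. Kcnv2 and Kcna5 had the widest gap between males and females, but neither passed. Kcnv2 averaged 4.79 CPM in KO males and 12.6 CPM in NLC males, and 6.43 CPM in KO females and 8.38 CPM in NLC females (n = 2 each). Its log2 fold change was -1.40 (SE 0.203) in males and -0.38 (SE 0.201) in females, a difference of -1.01 (SE 0.285, edgeR adjusted p = 0.648). Kcna5 had a log2 fold change of 0.36 (SE 0.172) in males and -0.33 (SE 0.171) in females, a difference of 0.69 (SE 0.243, edgeR adjusted p = 0.648) that was 0.44 without NLC replicate 1. Kcnd2, in contrast, stood at -0.52 (SE 0.272) in males and -0.76 (SE 0.273) in females, a difference of 0.24 (SE 0.384, edgeR adjusted p = 0.869). By this test of the interaction 0 genes of the table passed (0%), with 2 of the 8 members and 7.46% of all genes at an unadjusted p under 0.05. DESeq2 called 0.102% of genes and 0 of the 8, and limma voom called 0.

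**Figure D4:**
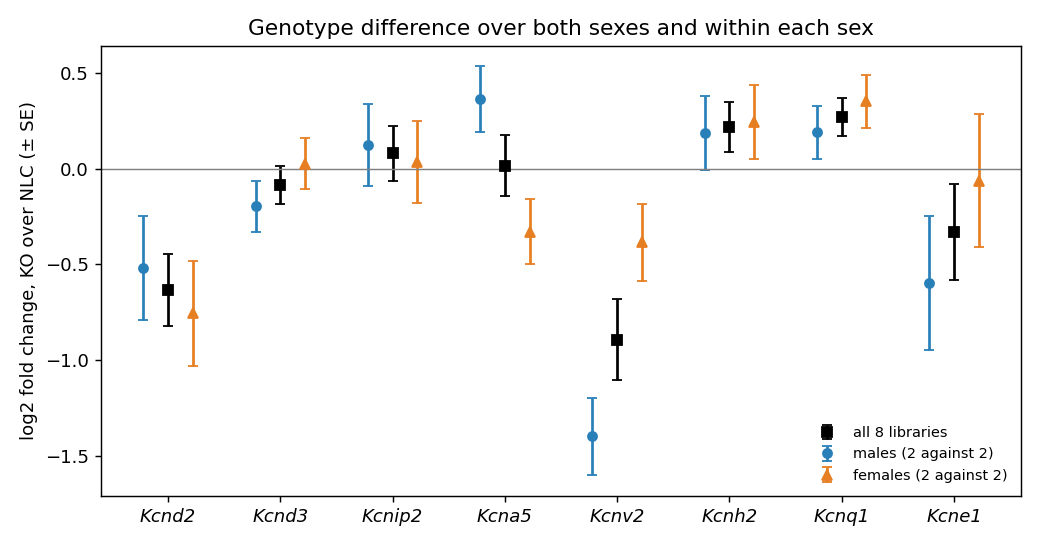
Log2 fold change of KO over NLC with its SE for the 8 tested subunits, over all 8 libraries (squares), in males (circles) and in females (triangles). Kcnd2, Kcnv2 and Kcne1 are below 0 in all 3, Kcnh2 and Kcnq1 above 0 in all 3, and Kcna5 is above 0 in males and below 0 in females.

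Other potassium channel genes and known regulators were set beside the members as 4 lists. They comprised other voltage-gated alpha subunits (13 of 34 tested), other accessory subunits (7 of 12), other repolarizing potassium channels (14 of 16) and transcriptional regulators (12 of 12). No gene of these lists passed in either direction by edgeR, DESeq2 or limma voom. At an unadjusted edgeR p under 0.05 there were 7, 3 higher and 4 lower in KO, where the share of all genes was 11.9% (5.77% higher and 6.18% lower). By list these were 2 of 13 alpha subunits (higher), 0 of 7 accessory subunits and 1 of 14 repolarizing channels (lower). The 12 regulators gave 1 higher and 3 lower. The median log2 fold changes of the lists were 0.03, 0.09, -0.05 and -0.10 in that order, beside -0.01 for all tested genes. Without NLC replicate 3, 1 gene passed, Kcnj3, at a log2 fold change of -1.003 (edgeR adjusted p = 0.00685), and without both female NLC libraries it stood at -0.85 (edgeR adjusted p = 0.0295). The latter setting compares KO males with NLC males only. Over all genes, 50 and 44 passed in these settings. No gene of the lists passed in the comparison of males with females or in the interaction.

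Of the alpha subunits, Kcng2, another silent subunit that forms no channel alone, was read at 216, 161, 162 and 152 CPM in KO and at 148, 153, 128 and 151 CPM in NLC. The groups overlapped, and the log2 fold change of 0.25 (SE 0.10002, edgeR adjusted p = 0.375) was opposite in sign to that of Kcnv2 and was 0.14 without KO replicate 1. Kcna4, the subunit of the slow transient outward current, had a log2 fold change of -0.12 (SE 0.206), which ran from -0.23 (without NLC replicate 3) to -0.01 (without NLC replicate 4). Among accessory subunits no gene had an unadjusted p under 0.05, with Kcnab1 at -0.39 (SE 0.242), Kcne4 at -0.23 (SE 0.193), Kcnab2 at 0.21 (SE 0.190) and the anchoring protein gene Akap9 at -0.12 (SE 0.0802). Single libraries moved these values, with Kcnab1 at -0.14 without NLC replicate 4 and Akap9 at -0.06 without KO replicate 1. Kcne4 ran from -0.35 (without NLC replicate 1) to -0.11 (without KO replicate 3) and Kcnab2 from 0.08 (without NLC replicate 1) to 0.32 (without NLC replicate 3).

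Among the other repolarizing channels, Kcnj3, a subunit of the acetylcholine-gated current and mainly atrial, was read at 34.6, 39.1, 54.5 and 56.8 CPM in KO and at 58.4, 74.0, 44.6 and 130.1 CPM in NLC. Its highest library was NLC replicate 4, the library with the highest atrial marker sum. Kcnj3 is itself among the 8 genes of that sum, so the 2 are not independent. It is also among the atrial markers counted above as lower in KO at an unadjusted p under 0.05. Kcnj3 gave a log2 fold change of -0.75 (SE 0.255, edgeR adjusted p = 0.344), which was -0.40 without NLC replicate 4. The part of atrial tissue in this value was not tested. Kcnn1 stood at 0.14 (SE 0.0814), Kcnn2 at -0.18 (SE 0.106) and Abcc8 at 0.13 (SE 0.126) on the log2 scale. Kcnn2 was -0.11 without NLC replicate 4, and Abcc8 ran from 0.01 (without KO replicate 1) to 0.26 (without NLC replicate 4).

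Regulators known to act on these channel genes in mouse heart include Klf15, through which the clock controls Kcnip2, and Irx5, a repressor of Kcnd2. Klf15 was read at 62.3 to 83.4 CPM and Irx5 at 9.65 to 15.5 CPM over the 8 libraries, and neither had an unadjusted p under 0.05 for genotype. The core clock genes Arntl and Clock had lower means in KO without passing. Arntl was read at 2.12, 1.87, 4.46 and 1.77 CPM in KO and at 5.58, 5.43, 2.93 and 6.12 CPM in NLC, with KO replicate 3 and NLC replicate 3 crossing between groups. Arntl gave a log2 fold change of -0.99 (SE 0.326, edgeR adjusted p = 0.336) and Clock one of -0.40 (SE 0.119, edgeR adjusted p = 0.285). Irx4 stood at 0.19 (SE 0.0648, edgeR adjusted p = 0.350) and Mef2c at -0.26 (SE 0.0954, edgeR adjusted p = 0.350).

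**Figure D5:**
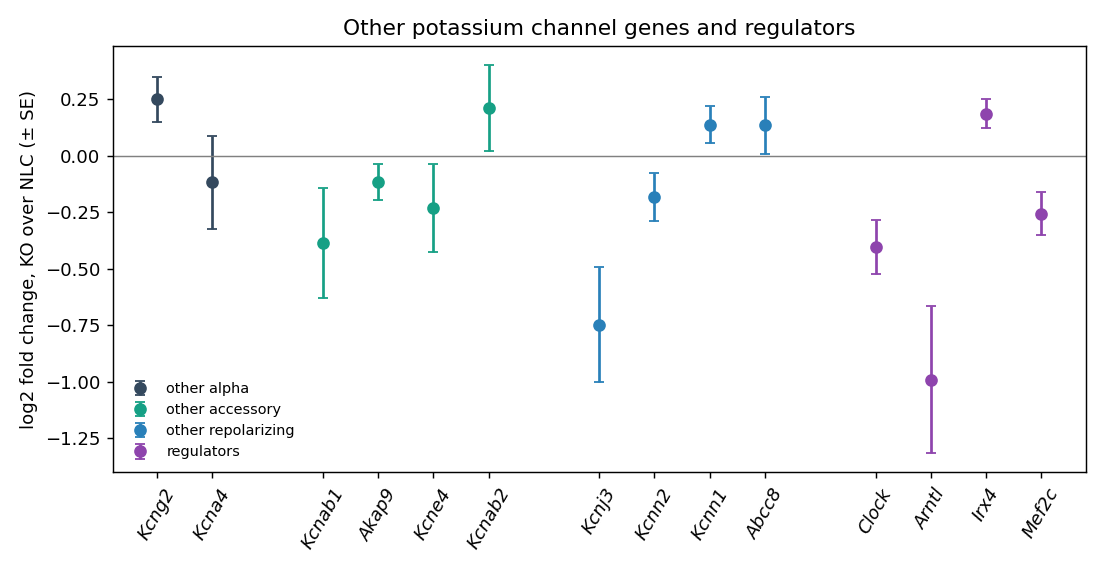
Log2 fold change of KO over NLC with its SE for 14 genes of smallest p from the 4 lists of other potassium channel genes and regulators (n = 4 libraries per group). Kcnj3 at -0.75 and Arntl at -0.99 have the largest values, and none of the 14 genes passed over all genes tested.

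The genes most alike to the most variable members were found by the root mean square difference of centred log2 CPM over the 8 libraries, among 10200 genes of at least 5 CPM. Kcnv2 had a spread of 0.540 by this measure, and its nearest genes were Dpyd at a difference of 0.207, Ppp2r3a at 0.208 and Pkia at 0.218. Kcnd2 had a spread of 0.420, and its nearest genes were Cd93 at 0.219, Apln at 0.223 and Plcb1 at 0.229. Kcne1 had a spread of 0.398, and its nearest genes were Gm12167 at 0.242, Zfp280c at 0.243 and Gm31013 at 0.248. The measure compares 8 libraries only, and the libraries of a genotype share their group.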

How the data were processed

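The libraries came from a stranded mRNA kit and total RNA of 8 left ventricles, per the labels' protocols, and the series' design text calls the 4 animals of a genotype biological replicates. The authors deposited raw counts for 55487 Ensembl identifiers plus 5 summary entries per library. The submitters' processing notes name STAR, HTSeq, DESeq2 and GRCm38, while tool versions, annotation release and strand setting are unnamed in every source used here. The summary entries (multiply mapped reads, 16.8% to 20.3% of the total, reads in no feature, 3.07% to 4.08%, and ambiguous reads, 1.26% to 1.38%) entered neither library sizes nor tests.

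GENCODE M21 supplied symbols for 55227 identifiers, as well as gene spans and exon unions. The main test was edgeR 4.0.16 in R 4.3.3 on genes kept by filterByExpr (grouped by genotype), with TMM scaling and a quasi-likelihood model of genotype plus sex. A second model, in which each combination of sex and genotype had its own mean, supplied the within-sex values and the interaction. Benjamini-Hochberg adjustment ran over all 14695 genes at a threshold of 0.05. CPM used TMM-scaled library sizes, and likeness used log2 CPM with a prior count of 2, computed here from the deposited counts. Within a group, libraries differed by more than sampling noise (chi-square over degrees of freedom between 15.3 and 41.7).

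The members, lists and rule for named genes were chosen with earlier results of these data known. The rule named the 9 members, Adgrf5, any called gene of the 4 lists, up to 4 genes per list with the smallest KO against NLC p at a mean of at least 1 CPM, and 3 genes most alike to each of the 3 most variable members. Some genes that the rule names are not reported here. Klf15, Irx5 and, in the closing observations, Kcnk3, Kcna10, Kcng3, Kcns2, Kcnh5, Kcnip3, Dpp10 and Kcne2 fall outside it and were named for their known roles or levels after their values were seen. Alternatives were DESeq2 1.42.0, limma voom (limma 3.58.1), RLE or upper-quartile scaling, TMM without mitochondrial genes, no low count filter, a minimum of 1 CPM in 4 libraries, no sex term, a replicate block, an adjusted p under 0.1, each library left out in turn, and both female NLC libraries left out.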

Additional observations from a re-analysis of the deposited data

Results flagged for a closer look

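Among 90 groups of 4 libraries examined for a value far from the others, 5 had one, and chance gives about 1 in 20. Kcnd3 was highest in KO replicate 4 at 18.7 CPM, where the other 3 KO libraries lay between 15.9 and 16.3 CPM. Abcc8, the sulfonylurea receptor gene, was lowest in KO replicate 2 at 59.0 CPM. Arntl was highest in KO replicate 3 at 4.46 CPM. Kcng2 was highest in KO replicate 1 at 216 CPM. The sum of 8 atrial markers was highest in NLC replicate 4 at 6416 CPM.

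Kcne4, an accessory subunit related to Kcne1, had both KO males (3.46 and 3.53 CPM) above both NLC males (2.92 and 3.06 CPM), and both KO females (2.49 and 2.63 CPM) below both NLC females (3.95 and 4.32 CPM). The difference between the sexes was 0.91 on the log2 scale (SE 0.269, edgeR adjusted p = 0.648), so it is not shown to differ over all genes tested.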

How the results depend on the processing

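For 28 fold changes or differences of single genes, 486 alternative values kept their direction and side of the threshold or, for members, moved by less than the SD between replicates. Another 7 newly passed, for Kcnj3, Arntl, Clock and the interactions of Kcnv2 and Kcna5. The members' KO against NLC values were judged by the SD alone. A new pass or change of sign there could therefore count among the 486, and the members' calls are given below. Kcne4 turned to 0.22 without both female NLC libraries. In the same setting Kcna5 moved to 0.36 and Kcnv2 to -1.40. That setting leaves only males in NLC, so its genotype values compare KO males with NLC males (n = 2 each). They repeat the within-male values given above, 0.36 for Kcna5 and -1.40 for Kcnv2. Its sex values likewise compare KO males with KO females only. The number of genes called for KO against NLC was 150 by DESeq2, 621 with no low count filter, 6 without the sex term, 44 without both female NLC libraries, 30 at an adjusted p under 0.1, and 0 to 50 without each library in turn. Of the members, DESeq2 called 1 (Kcnv2), where the share of all genes was 1.02%. No low count filter gave 2 (Kcnd2 and Kcnv2) among the 621 genes, and leaving out both female NLC libraries gave 1 (Kcnv2) among the 44. Of the 4 lists, no low count filter gave 4 called genes, leaving out both female NLC libraries 1, and leaving out single libraries 0 to 1. With no low count filter or with libraries left out, the share of all genes is not reported here. Nothing is read from the counts of members or list genes in those settings. For males against females, the count was 216 by DESeq2, 742 with no filter, 20 without both female NLC libraries, 82 at an adjusted p under 0.1 and 16 to 176 without each library in turn. For the interaction it was 15 by DESeq2, 243 with no filter (2 of them members, Kcnv2 and Kcna5) and 0 to 8 without each library in turn. Leaving out both female NLC libraries allows no interaction. The cause of the shifts in the other settings was not tested.

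With a replicate block, 0 genes were called for KO against NLC. The labels do not say that a replicate number marks shared animals or days. Deviations of same-numbered KO and NLC libraries from their group means correlated at 0.25, 0.09, -0.21 and 0.09 over genes. KO replicate 3 correlated best with NLC replicate 4 (0.50). Same-numbered libraries also have the same sex, so these values cannot decide whether a number marks shared animals or days. Members with few reads, Kcnv2 with 1803 and Kcne1 with 1900 over 8 libraries, are measured less precisely than Kcnip2 with 53171, and Dpp6 with 14 cannot be compared.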

Other observations

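Kcng2 was more abundant per length than every alpha subunit among the members, at 53.2 ± 8.51 CPM per kb (SD, n = 8), against 30.8 ± 4.79 CPM per kb for Kcnh2. The background potassium channel gene Kcnk3 was the highest of all listed channels at 82.9 ± 9.58 CPM per kb. Of 34 other alpha subunits, 4 had 0 reads in all 8 libraries, namely Kcna10, Kcng3, Kcns2 and Kcnh5. The alternative partners of the transient outward channel were scarce beside Kcnip2, with 486 reads for Kcnip3 and 10 for Dpp10 over the 8 libraries, and Kcne2, a partner of Kcnh2, had 2 reads.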
